A study of Mus musculus with 19 samples.

Results

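Potassium channel genes were described in dorsal root ganglia, the sensory ganglia of the spinal nerves, whose neurons report pain and touch from the limb. The genes were those of the deposited table whose symbol was Kcn, a run of letters and a final number, and whose mean over the 19 libraries was at least 10 counts. Of 91 matching symbols, 6 had a lower mean and Kcnj10 was set aside, which left 84 of the 36682 genes in the table. Kcna7 (mean 12.4 counts) and Kcna10 (12.9) lay just above the minimum, and Kcnk7 (9.89) lay just below it. The choice used symbols and the mean over all libraries, and no difference between groups. All 84 genes were among the 22778 that entered the test.

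The ganglia L3 to L5 came from male mice homozygous for the MaFIA transgene. In these mice the Csf1r promoter drives an inducible form of the Fas death receptor, and the dimerizing drug AP20187 kills the cells that carry it, which are macrophages and other myeloid cells. The 4 groups all carried the transgene. After DMM, 5 samples had received AP20187 and 5 vehicle; among naive mice, 4 had received AP20187 and 5 vehicle. DMM is surgical destabilization of the medial meniscus, which leads to osteoarthritis of the knee. Injections were intraperitoneal, given daily for 5 days, 8 weeks after the surgery or at a matched age in naive mice. Ganglia were taken on the operated side and pooled. The labels number the samples without stating that each is a separate animal, so p-values measure the spread between these libraries. They give no batch.

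Potassium channels let potassium leave the cell and so pull the membrane potential down, against firing. Voltage-gated channels open during an action potential: Kv1 channels (Kcna) curb excitability along the axon, Kv4 channels (Kcnd) delay the next spike, and Kv7 channels (Kcnq) carry the M-current, which damps repetitive firing. Calcium-activated channels (Kcnma, Kcnn) shape the after-hyperpolarization, and inward rectifiers (Kcnj) and tandem-pore leak channels (Kcnk) set the resting potential. Modifier subunits (Kcnf, Kcng, Kcns, Kcnv) form no channel alone, and auxiliary subunits (Kcnab, Kcne, Kcnip, Kcnmb) tune gating and transport to the membrane. In sensory neurons, lower potassium channel expression is a known companion of nerve injury and pain. The 84 genes comprised 63 pore-forming members in 12 subfamilies, 9 modifiers in 4 and 12 auxiliary subunits in 4.

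Libraries held 60984830 to 74691396 counts. Levels are given as CPM, a gene's counts relative to the total of its library after TMM normalization. TMM sets the bulk of genes equal between libraries. Comparisons between genes, and sums and shares over several genes, use FPKM (fragments relative to gene length and to the total). All genes together summed to 290279 to 444088 FPKM in a library, so FPKM sums are not on an equal scale between libraries. Neuronal markers varied widely between libraries. The score of 12 pan-neuronal markers (Tubb3, Nefl, Rbfox3 and others), as mean log2 CPM, ran from 6.45 to 8.58 under AP20187 and from 8.01 to 9.39 under vehicle after DMM, and from 6.997 to 9.06 and from 8.78 to 9.57 in naive mice. No pan-neuronal marker was at 0 in any group. The 4 naive AP20187 libraries stood apart from the naive vehicle libraries by high skeletal muscle markers (summed 1718 to 2635 CPM against 13.7 to 467) and by a lower central neuron marker score (-1.14 to -0.52 against 0.59 to 1.24), with Gabra6 at 0 in all 4. DMM vehicle 32 was also high in muscle markers, at 2120 CPM.

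At rest, in naive vehicle ganglia, the highest genes were a cytoplasmic Kv1 subunit, partners of Kv4 channels and a Kv4 pore gene. The 84 genes summed to 729 ± 139 FPKM (SD, n = 5), and 20 of them were at or above 10 FPKM, 37 between 1 and 10, and 27 under 1. Kcnab2, a cytoplasmic subunit that aids axonal delivery of Kv1 channels, came first at 113 ± 36.6 FPKM. Kcnip4 (81.3 ± 10.9) and Kcnip2 (32.1 ± 4.28), calcium-binding partners of Kv4 channels, were among the 5 highest, as was the Kv4 pore gene Kcnd1 (37.4 ± 10.6). The axonal Kv1 genes Kcna2 and Kcna1 stood at 25.8 ± 6.81 and 21.2 ± 10.6 FPKM. Neighbours in this order did not differ beyond their spread from Kcna2 down to Kcna1, with Kcnk1, a leak channel, at 24.5 ± 5.27 between them.

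**Figure D1:**
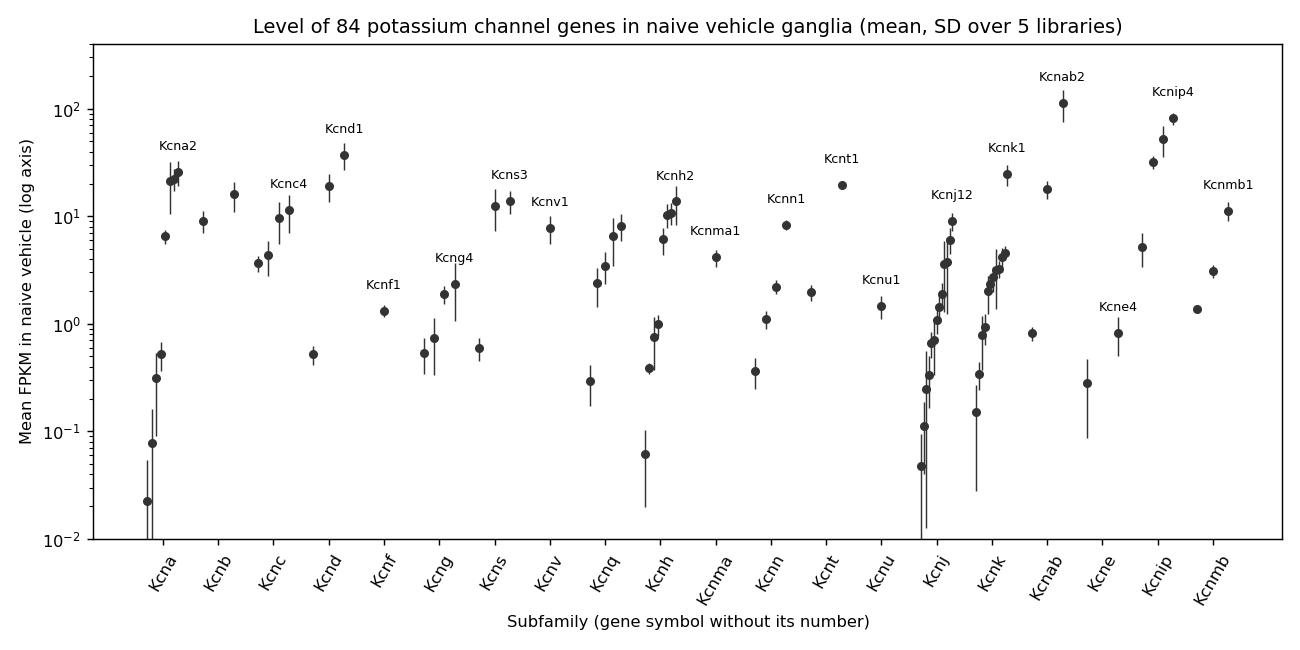
Mean FPKM (log axis) of the 84 genes in naive vehicle ganglia, by subfamily, with the SD over 5 libraries as bars; a lower bar that would reach 0 is cut short above it, and the highest gene of most subfamilies is named. Kcnab2 (113 FPKM) and Kcnip4 (81.3) stand highest, and Kcna7 (0.0226) lowest.

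Other classes were represented at intermediate levels. Kcnt1, which codes for a sodium-activated channel, was at 19.6 ± 1.36 FPKM. Kcnh2, of the ether-a-go-go family, was at 13.7 ± 5.43 FPKM. The modifiers Kcns3 (13.7 ± 3.25) and Kcns1 (12.6 ± 5.27), silent partners of other voltage-gated channels, lay at like levels. Kcnmb1, a subunit of the large-conductance calcium-activated (BK) channel, was at 11.3 ± 2.25 FPKM. Kcnc4, a Kv3 channel that inactivates quickly, was at 11.4 ± 4.37 FPKM and Kcnn1, a small-conductance calcium-activated channel, at 8.30 ± 0.913. Among the inward rectifiers Kcnj12 was highest (9.01 ± 1.76), and the leak channel Kcnk6 was at 0.779 ± 0.407 FPKM, in place 62 of 84.

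AP20187 given to DMM mice came with lower RNA of 30 potassium channel genes and higher RNA of 3, while 51 passed in neither direction. Of the 84 genes, 3 were higher (Kcnk6, Kcnj2 and Kcne4) and 30 lower in DMM with AP20187 than in DMM with vehicle, by edgeR's quasi-likelihood test with Benjamini-Hochberg adjustment over all tested genes (adjusted p under 0.05). That is 39.3% of them, against 23.8% of all genes tested, of which 11.3% were higher and 12.4% lower. The median log2 fold change was -1.17 for the 84 genes and -0.10 for all genes, and 74 of the 84 were negative. Their summed level was 265 ± 99.5 FPKM in DMM with AP20187 and 599 ± 238 in DMM with vehicle (n = 5 each), and the ranges of 143 to 417 and 270 to 865 overlapped.

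The pan-neuronal markers moved the same way: 9 of 12 were lower, and they summed to 2153 to 7990 CPM under AP20187 and 6034 to 15721 with vehicle. Among 11 nociceptor markers 7 were lower, and among 8 markers of large-fibre neurons 4. Markers outside neurons were lower too: 3 of 8 for myelinating Schwann cells, 2 of 7 for satellite glia and 3 of 8 for skeletal muscle. In these 3 lists 0 were higher. In bulk tissue, fewer neurons, less RNA per neuron and a smaller share of neurons in the tissue taken cannot be told apart. With the pan-neuronal score as a covariate, 3 of the 84 genes passed, against 4.46% of all genes: Kcnk6 was higher, and Kcnip2 and Kcnk2 were lower. With libraries scaled to the pan-neuronal markers, a setting chosen after seeing the data, 9 passed, of which 8 were higher and 1, Kcna7, was lower, while 41.5% of all genes passed. That scaling raised the median over all genes by 1.39 on the log2 scale, so that the 84 genes stood at 0.16 against 1.29 for all genes. Under that scaling 46 of the 84 log2 fold changes were above 0, and with the covariate 48 were, against 10 under TMM alone. Of the subfamilies reported here, the medians of Kcnab, Kcnf, Kcnh, Kcnj, Kcnt and Kcnv turned positive under both settings. Those of Kcnk, Kcnmb, Kcnn and Kcnu turned positive under the scaling alone, and those of Kcna, Kcnc, Kcnd, Kcng, Kcnma, Kcnq and Kcns with the covariate alone. The Kcnip median stayed negative under both, and the Kcne median, positive under TMM and the scaling, was -0.05 with the covariate. Directions in the rest of this comparison are under TMM normalization unless another scaling is named.

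The count also rested on single libraries. It was 13 without DMM AP20187 58 or without DMM vehicle 33, 14 without DMM vehicle 32, 15 and 16 without DMM AP20187 59 and 60, 18 without DMM vehicle 34 and 52 without DMM vehicle 64. The share of all genes that passed moved too, between 14.2% without DMM AP20187 58 and 34.0% without DMM vehicle 64. Of the 3 genes called higher, 2 passed in all 10 of these fits, and of the 30 called lower, 10 did. DMM vehicle 64, the lowest of its group in neuronal markers, was also the lowest of its group for 65 of the 84 genes (77.4%, against 32.1% of all genes tested). DMM AP20187 58 was lowest for 57 (67.9% against 32.4%). DMM vehicle numbers fall into 32 to 34 and 63 to 64, while the DMM AP20187 libraries are numbered 58 to 62. No DMM AP20187 library is numbered near 32 to 34, so treatment and number are partly confounded. The labels do not say what the numbers mean. Against vehicle 32 to 34 alone 59 genes passed, beside 36.3% of all genes. Against vehicle 63 and 64 alone 3 did (Kcnk6 higher, Kcnmb4 and Kcnn4 lower), beside 4.73% of all genes.

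**Figure D2:**
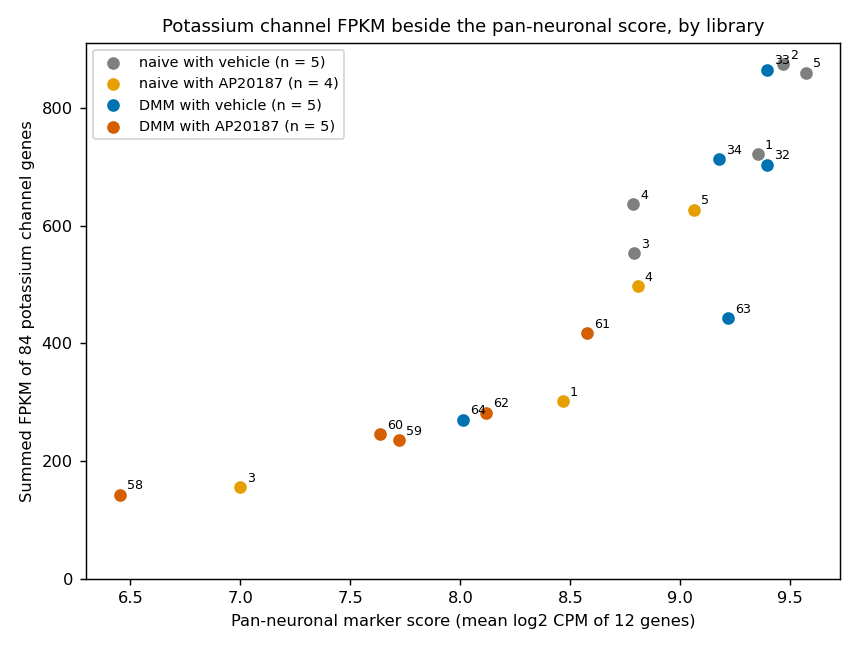
Summed FPKM of the 84 genes (vertical axis) beside the pan-neuronal marker score (mean log2 CPM of 12 genes, horizontal axis), a point for each of 19 libraries, labelled with its number. DMM AP20187 58 (score 6.45) lies lowest and naive vehicle libraries (score 8.78 to 9.57) lie among the highest. The points share library depth and composition.

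Kcnk6 (ENSMUSG00000046410, chromosome 7, 28921351 to 28931940, GRCm39) was the gene with the smallest p. It codes for a tandem-pore leak channel known from macrophages and blood vessels. Its level was 30.7, 23.8, 18.8, 17.7 and 30.5 CPM in the 5 DMM AP20187 libraries and 3.13, 2.58, 2.66, 4.59 and 8.99 CPM with vehicle. The groups did not overlap, and the highest vehicle library was number 64. The change was 5.53-fold (log2 fold change 2.47, SE 0.38, adjusted p 0.000463), and Kcnk6 kept its call in all 19 alternatives of this comparison, with either scaling. Such separation of the groups was seen upward for 2 of the 84 genes, Kcnk6 and Kcnj2, and downward for 5, against 8.71% and 4.18% of all genes tested (12.9% in either direction).

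Kcnj2 (ENSMUSG00000041695, chromosome 11, 110956990 to 110967647) codes for a strong inward rectifier that holds the resting potential of muscle and of myeloid cells. It was at 69.9, 35.3, 53.8, 47.3 and 61.6 CPM under AP20187 and at 16.8, 12.4, 20.4, 16.8 and 32.3 CPM with vehicle. Again the groups did not overlap and vehicle 64 was the highest of its group. The log2 fold change was 1.44 (SE 0.37, adjusted p 0.0112), and the call was lost with the pan-neuronal covariate and against DMM vehicle 63 and 64 alone. Kcne4 (ENSMUSG00000047330, chromosome 1, 78794475 to 78797745), a beta subunit with a single membrane span that inhibits some voltage-gated channels, was at 7.37 ± 2.07 CPM under AP20187 and 3.55 ± 1.41 with vehicle (n = 5 each). Its groups overlapped, between 4.81 and 5.30 CPM. The log2 fold change was 1.05 (SE 0.34, adjusted p 0.0315), and the call was lost in 5 of the 10 fits that left out a library: DMM AP20187 58 or 60, or DMM vehicle 32, 33 or 34.

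Markers of blood-forming cells and leukocytes also changed. Of 10 such markers, 5 were higher (Mpo, Elane, Lcn2, S100a8 and Ptprc) and 3 lower (Cd79a, Rag1 and Hba-a1), and they summed to 4612 to 7901 CPM under AP20187 and 543 to 9654 with vehicle, where the highest library was 64. Of 8 macrophage markers 1, Mrc1, was higher and 0 were lower, and of 8 endothelial and mural markers 2 were higher. Their part in the rise of Kcnk6, Kcnj2 and Kcne4 was not tested. Kcnj15, an inward rectifier named after its values were seen, was at 8.41, 2.89, 5.75, 7.01 and 8.32 CPM under AP20187 and 1.19, 1.06, 0.424, 2.16 and 4.11 with vehicle, and did not pass (adjusted p 0.0588). Kcnj8, the pore gene of the vascular ATP-sensitive channel, was at 4.27 ± 2.04 and 2.50 ± 2.05 CPM and did not pass either (adjusted p 0.283).

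**Figure D3:**
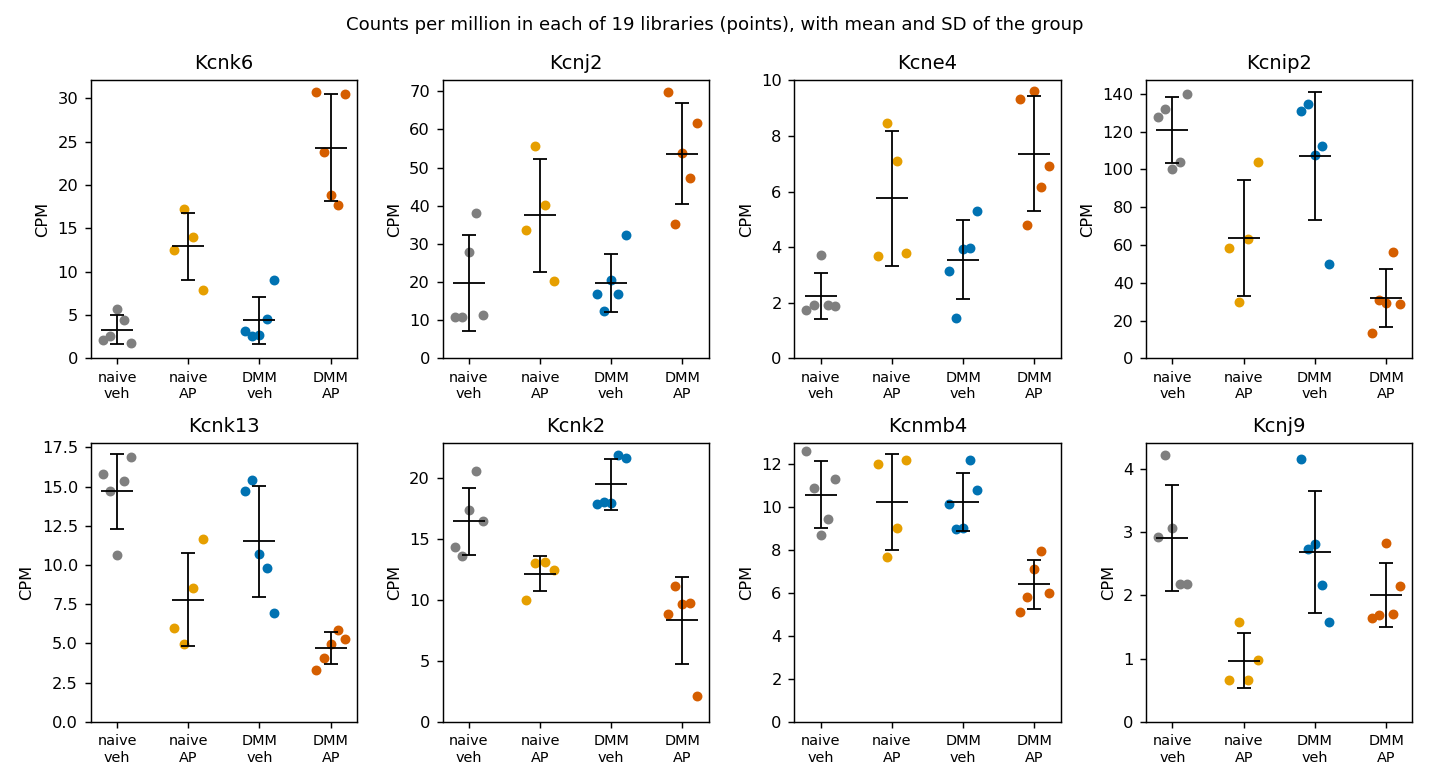
CPM of 8 genes in each library (points), with the mean and SD of the group (bars, n = 4 or 5; veh is vehicle and AP is AP20187). Kcnk6 lies at 17.7 to 30.7 CPM in DMM with AP20187, above every vehicle library, while Kcnk13, Kcnk2 and Kcnmb4 lie below every DMM vehicle library.

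Among the leak channels (Kcnk), 6 of 12 were lower and 1, Kcnk6, was higher, beside 12.4% and 11.3% of all genes. Their median log2 fold change was -1.23, against 0.19 with the pan-neuronal scaling and -0.32 with the covariate. Kcnk13 (ENSMUSG00000045404, chromosome 12, 99930758 to 100028941), a leak channel known from microglia, was at 3.30, 4.06, 4.93, 5.84 and 5.30 CPM under AP20187 and 14.7, 15.4, 10.7, 9.83 and 6.92 with vehicle. No AP20187 library reached the lowest vehicle library, number 64. Kcnk13 fell by 1.30 on the log2 scale (SE 0.25, adjusted p 0.00228). Its call was lost with the pan-neuronal covariate, with the scaling and against DMM vehicle 63 and 64 alone. Kcnk2 (ENSMUSG00000037624, chromosome 1, 188940127 to 189134470), a leak channel opened by stretch and heat, was at 8.83, 11.2, 9.69, 9.72 and 2.12 CPM against 17.9, 18.01, 17.9, 21.9 and 21.6. Here vehicle 64 was not low, and the groups did not overlap. Kcnk2 fell by 1.23 on the log2 scale (SE 0.29, adjusted p 0.00627), and the log2 fold change was -1.41 with the pan-neuronal covariate. It was 0.20 with the pan-neuronal scaling, where the call was lost, as it was against DMM vehicle 63 and 64 alone. Kcnk2 overlaps other annotated genes on both strands, so its reads may not all be its own.

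Kcnk9, an acid-sensitive leak channel, also had groups without overlap, by a narrow gap: it was at 1.21 to 2.05 CPM under AP20187 and 2.10 to 6.37 with vehicle (log2 fold change -1.23, SE 0.40, adjusted p 0.0352). It lost its call in 8 of the 10 fits without a library, all but those without DMM vehicle 63 or 64. Kcnk1 was at 22.4 ± 10.48 and 45.5 ± 11.6 CPM (log2 fold change -1.02, adjusted p 0.0401), a call kept in 4 of the 10 fits without a library. Kcnk18, a leak channel of nociceptors and trigeminal neurons, was at 1.61 ± 1.01 and 5.18 ± 3.11 CPM and did not pass (adjusted p 0.0657). Kcnk4, which is opened by stretch, was at 4.996 ± 0.683 and 8.31 ± 2.96 CPM and did not pass (adjusted p 0.0781).

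The Kv4 group gave lower calls among both its pores and its partners, with medians of -0.44 for Kcnd and -0.10 for Kcnip under the pan-neuronal scaling and of 0.14 and -0.07 with the covariate. Of 3 Kcnd genes 2 were lower, and of 4 Kcnip genes 3 were, beside 12.4% of all genes. Kcnip2 (ENSMUSG00000025221, chromosome 19, 45780278 to 45804500) was at 13.7, 31.1, 29.3, 56.4 and 28.9 CPM under AP20187 and 131, 135, 108, 112 and 50.2 with vehicle. Of the vehicle libraries, 64 alone fell within the range of the AP20187 libraries. Kcnip2 fell by 1.75 on the log2 scale (SE 0.35, adjusted p 0.00243), with -0.67 under the pan-neuronal covariate; the call was lost with the pan-neuronal scaling and against DMM vehicle 63 and 64 alone. Kcnip4, which slows and reshapes Kv4 inactivation, was at 48.0, 146, 132, 168 and 99.6 CPM against 365, 301, 237, 262 and 125, with vehicle 64 again inside the AP20187 range (log2 fold change -1.12, SE 0.33, adjusted p 0.0206; lost without DMM vehicle 32). Kcnip4 is overlapped by many small annotated genes on its own strand. Kcnip1 was at 17.0 ± 6.58 and 29.2 ± 9.32 CPM and did not pass (adjusted p 0.181).

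The pore genes varied widely within groups. Kcnd1 was at 10.3, 34.9, 29.3, 98.1 and 53.7 CPM under AP20187 and 178, 263, 185, 117 and 45.8 with vehicle (log2 fold change -1.80, SE 0.54, adjusted p 0.0239). AP20187 61 was the highest of its group and vehicle 64 the lowest of its own, and these overlapped. Kcnd3 was at 41.3 ± 31.3 and 131 ± 83.9 CPM (log2 fold change -1.66, SE 0.60, adjusted p 0.0495). Kcnd1 lost its call without DMM AP20187 58, 59 or 60 or DMM vehicle 33, and Kcnd3 kept its call in only 3 of the 10 fits without a library, those without DMM AP20187 61 or DMM vehicle 63 or 64.

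The axonal Kv1 channels varied as widely and mostly did not pass. Of 8 Kcna genes 3 were lower, beside 12.4% of all genes, with a median of -1.43 that was 0.24 with the covariate. Kcna1 was at 7.06, 20.5, 23.6, 54.2 and 47.0 CPM under AP20187 and 92.6, 175, 127, 32.8 and 16.8 with vehicle (log2 fold change -1.54, SE 0.63, adjusted p 0.0809). Kcna2 was at 95.3 ± 57.9 and 247 ± 151 CPM (log2 fold change -1.37, SE 0.52, adjusted p 0.0608). In both, vehicle 63 and 64 lay inside the AP20187 range and the other 3 vehicle libraries above it. Kcna4, a Kv1 channel of small neurons that inactivates quickly, was at 8.06 ± 7.004 and 24.8 ± 13.5 CPM and passed (log2 fold change -1.62, adjusted p 0.0431), but kept its call in 3 of the 10 fits without a library. Of the cytoplasmic subunits, Kcnab1 was at 29.7, 58.4, 53.6, 108 and 81.1 CPM against 243, 253, 193, 152 and 64.8 (log2 fold change -1.45, SE 0.38, adjusted p 0.0112), while Kcnab2 was at 308 ± 172 and 646 ± 297 and did not pass (adjusted p 0.0807).

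Kcna7 (ENSMUSG00000038201, chromosome 7), a channel known from skeletal muscle and heart, was at 0 counts in all 5 DMM AP20187 libraries. In DMM vehicle it was at 1.71, 0, 0.0605, 0.423 and 0.118 CPM, so the groups overlapped at 0. Taking 3 counts per library as the floor (0.0509 CPM in the library where it was highest), Kcna7 was at least 9.08-fold lower with AP20187 by its vehicle mean of 0.462 CPM. Without DMM vehicle 32, the library high in muscle markers, that bound was 2.95. The edgeR call (adjusted p 0.0126) was lost with FPKM values, with the covariate and against DMM vehicle 63 and 64, and DESeq2 gave it no adjusted p.

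Among the calcium-activated channels and their subunits, 2 of 4 Kcnn genes and 2 of 3 Kcnmb genes were lower, beside 12.4% of all genes. The medians of -0.99 and -0.73 were 0.23 and 0.63 with the pan-neuronal scaling and -0.40 and -0.30 with the covariate. Kcnn1 was at 4.74, 8.95, 8.22, 17.97 and 10.3 CPM under AP20187 and 41.7, 43.9, 28.8, 23.2 and 14.1 with vehicle, where vehicle 64 was inside the AP20187 range (log2 fold change -1.60, SE 0.37, adjusted p 0.00666). Kcnn2, of the same channel class, was at 0.758, 4.31, 2.43, 4.85 and 3.96 CPM against 9.08, 8.95, 9.18, 9.06 and 4.78 (log2 fold change -1.33, SE 0.37, adjusted p 0.0173). Kcnn4, the intermediate-conductance channel of blood cells, was at 9.16 ± 1.47 and 14.3 ± 7.81 CPM and did not pass (adjusted p 0.116). Vehicle 63 and 64, at 19.4 and 25.3 CPM, were the highest of its 19 libraries.

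The BK pore gene Kcnma1 was at 21.1 ± 10.53 and 55.2 ± 33.8 CPM and did not pass (adjusted p 0.0663). Kcnmb1 was at 6.92, 13.1, 14.1, 24.03 and 13.0 CPM under AP20187 and 54.0, 49.0, 45.7, 32.5 and 20.4 with vehicle (log2 fold change -1.50, SE 0.38, adjusted p 0.00987). It overlaps Kcnip1 on the opposite strand. Kcnmb4 (ENSMUSG00000054934, chromosome 10, 116253766 to 116309783), the subunit of BK channels in neurons, varied little within a group: it was at 5.09, 5.80, 7.13, 7.97 and 6.01 CPM against 10.2, 8.95, 9.03, 12.2 and 10.8. The groups did not overlap, and vehicle 64 was not low. Kcnmb4 fell by 0.68 on the log2 scale (SE 0.17, adjusted p 0.0112). Its call was lost with the pan-neuronal covariate and with the pan-neuronal scaling, where the log2 fold change turned positive. Kcnu1 (ENSMUSG00000031576, chromosome 8), best known as the potassium channel of sperm, was at 1.83, 3.00, 3.45, 2.05 and 1.66 CPM against 6.72, 4.85, 4.27, 5.20 and 4.28, also with no overlap (log2 fold change -1.08, SE 0.24, adjusted p 0.00528). The Kcnu1 call was lost with the covariate, with the scaling and against DMM vehicle 63 and 64 alone.

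Other voltage-gated subfamilies gave lower calls in 3 of 4 Kcnc, 2 of 5 Kcnq and 1 of 8 Kcnh genes, beside 12.4% of all genes. The 2 sodium-activated Kcnt genes gave none. The medians of these 4 subfamilies were above 0 with the covariate, and those of Kcnh and Kcnt also with the scaling. Kcnq3, a subunit of the M-current channel, was at 10.2 ± 5.76 and 27.1 ± 19.8 CPM and did not pass (adjusted p 0.127). Kcnc4 was at 9.86 ± 6.18 and 32.0 ± 24.5 CPM (log2 fold change -1.70, SE 0.61, adjusted p 0.0491), and kept its call in 3 of the 10 fits without a library. Kcnh2 (19.2 ± 12.1 and 51.8 ± 25.8 CPM, adjusted p 0.0558) and Kcnt1 (66.5 ± 34.1 and 144 ± 69.04 CPM, adjusted p 0.107) did not pass. Of 13 Kcnj genes, 1 was higher and 2 were lower, shares near the 11.3% and 12.4% of all genes. The Kcnj median of -0.66 was 0.69 with the pan-neuronal scaling and 0.11 with the covariate. Kcnj12, among the lower genes (7.02 ± 4.09 and 17.8 ± 9.50 CPM, adjusted p 0.0471), kept its call in 3 of the 10 fits without a library. Kcnj11, the pore gene of the neuronal ATP-sensitive channel, was at 1.81 ± 1.44 and 3.67 ± 1.83 CPM and did not pass (adjusted p 0.109).

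The modifiers that form no channel alone gave 2 lower calls in 9 genes, in Kcns and Kcng, beside 12.4% of all genes. The Kcns and Kcng medians were above 0 with the covariate (0.18 and 0.54). Kcns1, a silent partner that has been linked to neuropathic pain, was at 1.67, 6.18, 4.501, 14.0 and 16.2 CPM under AP20187 and 32.8, 37.5, 30.2, 23.6 and 10.3 with vehicle. Vehicle 64 alone lay within the AP20187 range. Kcns1 fell by 1.66 on the log2 scale (SE 0.56, adjusted p 0.0381), lost in 7 of the 10 fits without a library. Kcns3 (21.0 ± 9.53 and 39.1 ± 14.0 CPM, adjusted p 0.0717), Kcnf1 (3.26 ± 1.78 and 5.12 ± 2.38, adjusted p 0.316), Kcng4 (2.87 ± 2.14 and 7.43 ± 4.25, adjusted p 0.125) and Kcnv1 (19.8 ± 10.3 and 35.1 ± 14.1, adjusted p 0.156) did not pass.

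**Figure D4:**
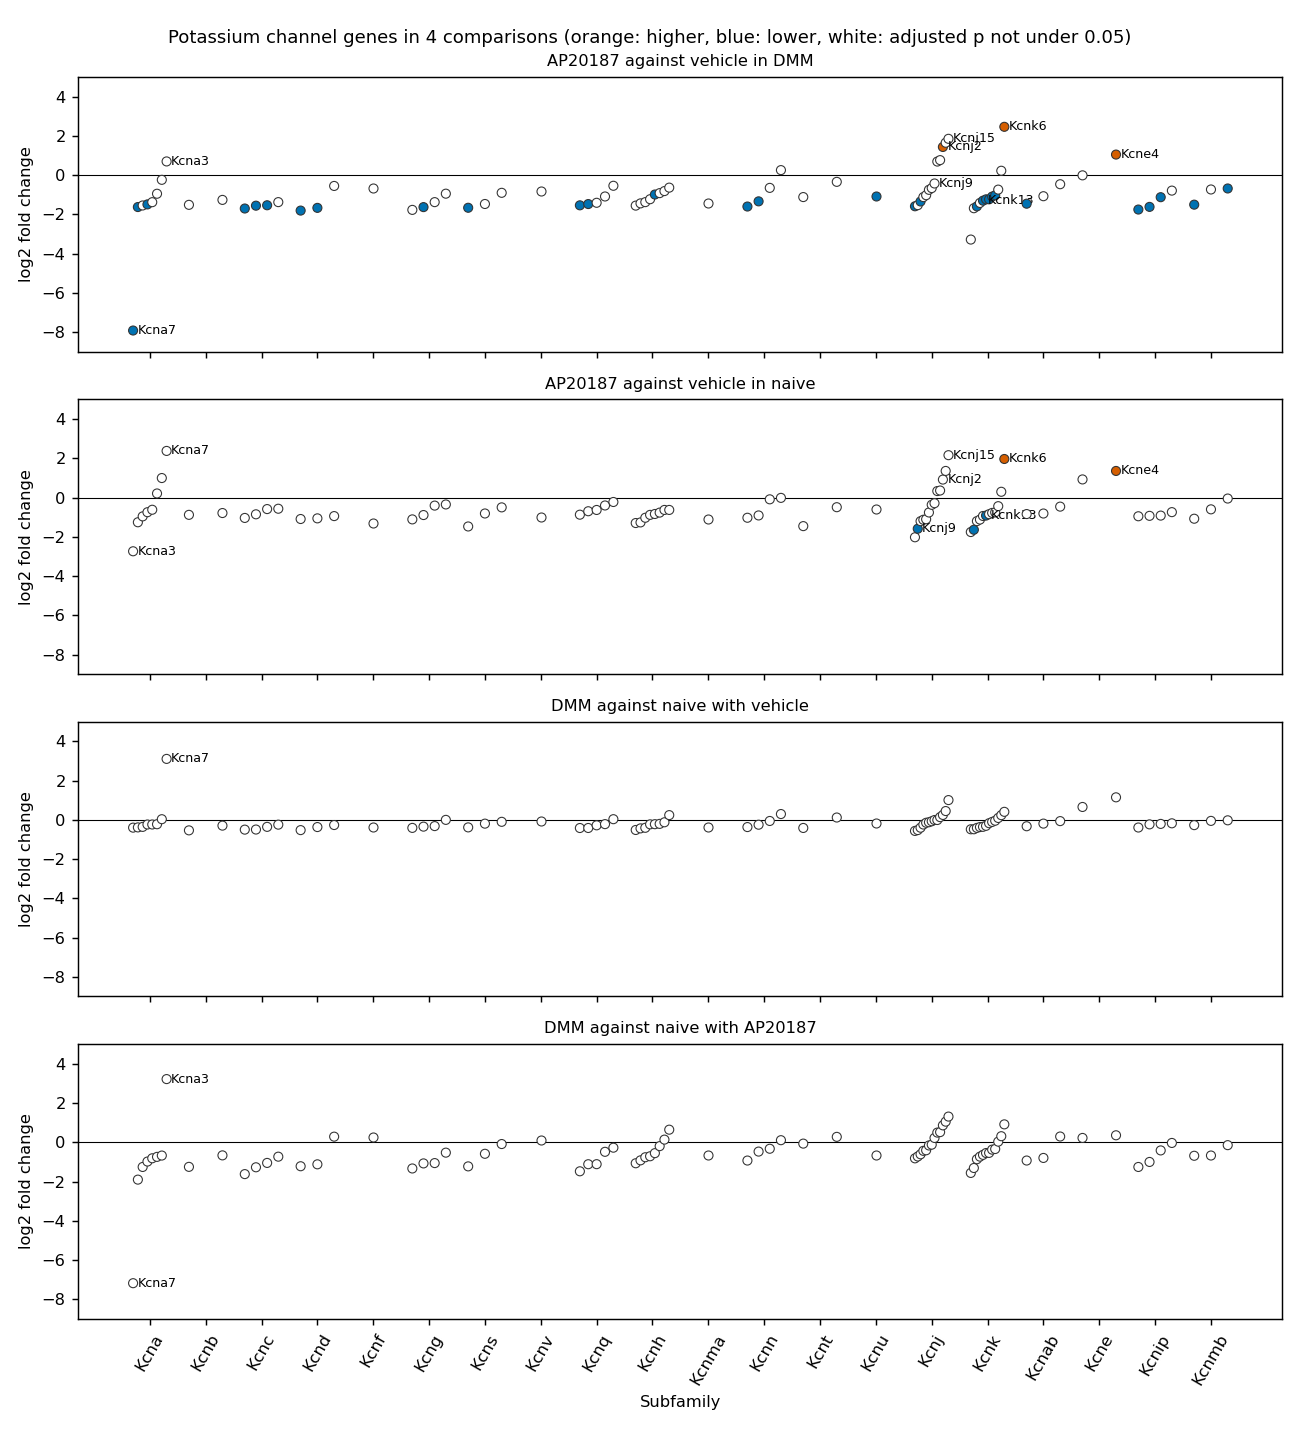
Log2 fold change of each of the 84 genes (points, TMM normalization) by subfamily in 4 comparisons, with genes called higher in orange, called lower in blue and not called in white; the points of Kcna7, which is at 0 in the DMM AP20187 libraries, depend on the fit's prior count and give no size. In DMM mice, 74 of 84 points lie below 0 under AP20187 and Kcnk6 lies at 2.47; with libraries scaled to pan-neuronal markers, 46 of 84 were above 0 instead.

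Partners of the channels also gave lower calls. Of 33 partner genes (accessory subunits, scaffolds, pacemaker channels and regulators), 32 were tested, 11 were lower and 1 higher in DMM with AP20187, against 12.4% and 11.3% of all genes tested, beside the 9 of 12 pan-neuronal markers that were lower too. The members named here were chosen after their values were seen. The dipeptidyl-peptidase-like subunits of Kv4 channels were both lower: Dpp6 was at 87.6 CPM against 311 (log2 fold change -1.83, SE 0.57, adjusted p 0.0278) and Dpp10 at 66.0 against 180 (log2 fold change -1.45, SE 0.39, adjusted p 0.0139). Cntnap2, which clusters Kv1 channels beside the node, was at 62.1 against 161 CPM (adjusted p 0.0435). The scaffold gene Dlg1 was higher, at 65.2 against 41.5 CPM (adjusted p 0.0281). In naive mice the list gave 1 lower call, Akap5, and no higher one, against 2.57% and 8.61% of all genes.

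The promoters of 4 called genes are shown because they moved in opposite directions: Kcnj2 and Kcne4 were higher, Kcnip2 and Kcnmb4 lower in DMM with AP20187, under TMM normalization. The sequences are the 250 bases before the annotated start, on the strand of the gene, from RefSeq on GRCm38.p6, another build than that of the gene positions above. They lie at chr11:111065914-111066163 (plus strand, Kcnj2), chr1:78816661-78816910 (plus, Kcne4), chr19:45816064-45816313 (minus, Kcnip2) and chr10:116473524-116473773 (minus, Kcnmb4). Capitals mark the GC box, GGGCGG, or its complement CCGCCC.
Kcnj2: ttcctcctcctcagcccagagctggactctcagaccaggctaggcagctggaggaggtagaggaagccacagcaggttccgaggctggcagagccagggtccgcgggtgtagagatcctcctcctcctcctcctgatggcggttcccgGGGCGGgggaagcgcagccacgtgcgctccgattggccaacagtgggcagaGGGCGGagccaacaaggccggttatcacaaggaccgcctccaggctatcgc
Kcne4: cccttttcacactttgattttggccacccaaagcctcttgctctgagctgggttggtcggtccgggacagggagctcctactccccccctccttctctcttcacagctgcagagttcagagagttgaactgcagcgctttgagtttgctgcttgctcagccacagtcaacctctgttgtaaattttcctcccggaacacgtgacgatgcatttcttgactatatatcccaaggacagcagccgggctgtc
Kcnip2: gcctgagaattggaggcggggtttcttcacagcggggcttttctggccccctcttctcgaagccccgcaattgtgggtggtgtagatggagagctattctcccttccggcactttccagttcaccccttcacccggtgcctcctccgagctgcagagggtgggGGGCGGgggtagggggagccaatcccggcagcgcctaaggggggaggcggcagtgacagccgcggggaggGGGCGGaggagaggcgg
Kcnmb4: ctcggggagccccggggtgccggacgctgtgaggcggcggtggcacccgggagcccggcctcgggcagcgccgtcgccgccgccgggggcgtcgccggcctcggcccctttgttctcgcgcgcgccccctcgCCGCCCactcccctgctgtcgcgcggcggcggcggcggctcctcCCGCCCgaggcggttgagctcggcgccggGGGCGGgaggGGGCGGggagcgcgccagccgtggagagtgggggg

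Kcnmb4 held 4 GC boxes and 43 CG pairs in this window, and Kcnj2 and Kcnip2 held 2 GC boxes each, with 14 and 15 CG pairs. Kcne4 held no GC box and 7 CG pairs. RefSeq windows were found for 61 of the 84 genes, 85 windows in all, since some genes have several starts. GGGCGG on either strand was in 43.5% of these windows and in 32.7% of all 32851 windows of that length. TATAAA was in 3.53% against 12.4%, TCAGCACC, a part of the site of the repressor Rest, in 1.18% against 1.32%, and TGACGTCA, the cyclic AMP response element, in 0.00% against 1.55%. None of these motifs contains another, and a match describes the window only.

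In naive mice, AP20187 came with higher Kcnk6 and Kcne4 RNA and lower Kcnj9, Kcnk9 and Kcnk13 RNA. Of the 84 genes, 2 were higher (Kcnk6 and Kcne4) and 3 lower (Kcnj9, Kcnk9 and Kcnk13), which is 5.95% against 11.2% of all genes tested (8.61% higher and 2.57% lower). The median log2 fold change was -0.81 for the 84 genes and -0.07 for all genes, and 72 of 84 were negative. Their summed level was 395 ± 208 FPKM under AP20187 (n = 4), against 729 ± 139 under vehicle (n = 5). With libraries scaled to the pan-neuronal markers, which raised the median of all genes by 1.04, the calls were Kcnk6 and Kcne4, both higher, against 9.58% of all genes, and 34 of 84 values were above 0. With the covariate they were Kcnk6 and Kcnj9, against 4.78% of all genes. Groups did not overlap for 2 genes upward and 13 downward, against 9.39% and 6.15% of all genes tested (15.5% in either direction).

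The count in naive mice was 16 without naive AP20187 5, 3 without naive AP20187 1 and 2 without naive AP20187 3 or naive vehicle 1 or 2. The share of all genes that passed in these fits was 14.7%, 5.07%, 4.24%, 6.03% and 5.69% in the same order. Naive AP20187 3, with the lowest pan-neuronal score of its group, was the lowest of its group for 67 of the 84 genes (79.8% against 34.6% of all genes tested). Naive vehicle 4, with the lowest such score in its own group, was lowest there for 20 (23.8% against 22.2%). DESeq2 called 16 genes, 3 higher and 13 lower, and 19.1% of all genes. None of 12 pan-neuronal markers passed in this comparison, though their range was wide (2665 to 12364 CPM summed with AP20187 and 8638 to 17891 with vehicle). Skeletal muscle markers were higher for 3 of 8, and central neuron markers lower for 4 of 10, in the naive AP20187 libraries. Marrow and leukocyte markers were higher for 6 of 10 and lower for 2, and central nervous system glia markers lower for 3 of 8. Macrophage markers were higher for 2 of 8 and lower for 0 (summed 327 to 558 CPM with AP20187 and 72.7 to 390 with vehicle). The part of these marker groups in the values below was not tested.

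Kcnk6 was at 12.5, 17.2, 13.9 and 7.94 CPM in naive with AP20187 and 2.15, 2.56, 5.67, 4.39 and 1.72 with vehicle. The groups did not overlap (3.91-fold, log2 fold change 1.97, SE 0.39, adjusted p 0.00432), and the call held in all 17 alternatives of this comparison. Kcne4 was at 3.67, 8.48, 7.11 and 3.77 CPM against 1.73, 1.93, 3.73, 1.94 and 1.90, where vehicle 3 lay within the AP20187 range (log2 fold change 1.36, SE 0.35, adjusted p 0.0207; lost without naive AP20187 3 or naive vehicle 1 or 2, with the covariate and with FPKM values). Kcnj2 was at 33.5, 55.7, 40.3 and 20.2 CPM against 10.9, 10.8, 27.8, 38.2 and 11.4 and did not pass (log2 fold change 0.92, SE 0.39, adjusted p 0.126). Vehicle 3 and 4 were the high libraries of that group.

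Kcnj9 (ENSMUSG00000038026, chromosome 1, 172148068 to 172156885), a subunit of the inward rectifier that G proteins open, had the smallest p among the lower genes. It was at 0.657, 1.59, 0.655 and 0.972 CPM under AP20187 and 2.93, 4.23, 3.07, 2.18 and 2.18 with vehicle, with no overlap (log2 fold change -1.59, SE 0.34, adjusted p 0.00739). It passed in all 9 fits without a library and was at -0.22 with the pan-neuronal scaling. Kcnk9 was at 1.26, 0.540, 3.06 and 0.696 CPM against 5.08, 6.28, 3.79, 2.95 and 3.58; naive AP20187 4 lay inside the vehicle range (log2 fold change -1.64, SE 0.44, adjusted p 0.0239). The Kcnk9 call was lost without naive AP20187 1 or 3 or naive vehicle 1 or 2, and with a block for the sample numbers that both treatments share. Kcnk13 was at 5.999, 4.98, 8.50 and 11.7 CPM against 15.8, 14.7, 10.7, 15.4 and 16.9, with naive AP20187 5 inside the vehicle range (log2 fold change -0.92, SE 0.27, adjusted p 0.0359), and passed in 3 of 9 fits without a library.

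Several genes that were lower in DMM mice, among them Kcnip2, Kcnmb4 and Kcnk2, did not pass in naive mice, and the difference between the effects was tested only by the interaction below. Kcnip2 was at 58.5, 29.7, 63.2 and 104 CPM in naive with AP20187 against 128, 132, 100, 104 and 140 (log2 fold change -0.92, SE 0.36, adjusted p 0.106). Kcnmb4 was at 12.02, 7.68, 9.01 and 12.2 CPM against 12.6, 10.9, 8.68, 9.44 and 11.3 (log2 fold change -0.05, SE 0.18, adjusted p 0.878). Kcnk2 was at 10.01, 13.0, 13.1 and 12.5 CPM against 14.3, 13.6, 17.4, 20.5 and 16.5; its groups did not overlap, yet it did not pass (log2 fold change -0.44, SE 0.30, adjusted p 0.338). Kcnt1, which passed in neither, was at 54.1, 16.4, 95.7 and 112 CPM against 188, 210, 166, 190 and 201, also without overlap (log2 fold change -1.46, SE 0.54, adjusted p 0.0856).

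Kcna3, a channel of lymphocytes and of some neurons, was lowest in naive mice given AP20187: it was at 0.0173, 0, 0.0840 and 0.259 CPM there, 0.315, 0.668, 0.533, 1.32 and 0.240 in naive vehicle, 0.179 to 0.868 in DMM vehicle and 0.285 to 1.58 in DMM with AP20187. Naive AP20187 5, at 0.259, lay just above naive vehicle 5, so those groups overlapped. The log2 fold change in naive mice was -2.74 (SE 0.90, adjusted p 0.0565). Of 10 central neuron markers, 4 were lower in the same 4 libraries, while their summed level overlapped (47.1 to 108 CPM against 33.8 to 114 in naive vehicle). Gabra6 was at 0 in all of them and at 0.613 to 1.44 CPM in naive vehicle, and Cbln3 was at 0.0648 to 0.185 against 1.51 to 2.89 CPM. Their part in the low values of Kcna3 was not tested.

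Surgery alone left the potassium channel genes without a call. Between DMM and naive mice with vehicle, 0 of the 84 genes passed in edgeR's test, against 0.00% of all genes, and 0 in DESeq2; 1 had an unadjusted p under 0.05 (1.66% of all genes did), Kcna7 (log2 fold change 3.11, SE 1.44, unadjusted p 0.0482, adjusted p 1.00). No gene had groups without overlap, against 0.237% of all genes in either direction (0.127% higher and 0.110% lower). The median log2 fold change was -0.23 for the 84 genes and 0.03 for all genes, and 68 were negative. With DMM vehicle 63 and 64 alone the median was -0.997, and with 32 to 34 alone it was 0.04. Kcne4 was at 3.55 ± 1.41 CPM in DMM and 2.24 ± 0.836 in naive vehicle (log2 fold change 0.66, SE 0.34, unadjusted p 0.0649), and Kcne3, its relative, at 1.17 ± 1.03 and 0.522 ± 0.342 (log2 fold change 1.15, SE 0.65, unadjusted p 0.0922). The pain-related genes Kcna2, Kcns1 and Kcnk18 were at 247, 26.9 and 5.18 CPM in DMM and 316, 35.0 and 7.20 in naive vehicle, with ranges that overlapped.

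Under AP20187, DMM and naive mice also gave 0 calls among the 84 genes, against 0.702% of all genes (0.263% higher and 0.439% lower); 15 had an unadjusted p under 0.05 (16.7% of all genes did), and DESeq2 called 4 (Kcna3 and Kcnj9 higher, Kcna7 and Kcnmb4 lower in DMM) and 4.87% of all genes. The sign was negative for 64. Without overlap were 3 genes upward (Kcna3, Kcnj9 and Kcnk6) and 1 downward (Kcna7), against 3.46% and 2.44% of all genes, or 5.90% in either direction. Kcnk6 was at 17.7 to 30.7 CPM in DMM and 7.94 to 17.2 in naive mice (log2 fold change 0.91, SE 0.39, adjusted p 0.253). Kcnj9 was at 1.64, 1.70, 2.84, 1.71 and 2.16 CPM in DMM, just above the highest naive library at 1.59 (log2 fold change 1.05, SE 0.34, adjusted p 0.141). Kcnmb4 was at 6.40 ± 1.14 and 10.2 ± 2.23 CPM (log2 fold change -0.68, SE 0.18, adjusted p 0.0844). For Kcna3 the value was 3.22 on the log2 scale (SE 0.92, adjusted p 0.0973), and passed without naive AP20187 5.

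The interaction asks whether AP20187 acted alike in operated and naive mice. It gave 0 calls in edgeR's test, against 0.114% of all genes (0.0483% higher and 0.0659% lower); 4 had an unadjusted p under 0.05 (7.67% of all genes did), and DESeq2 called 1, Kcna7, and 0.983% of all genes. The comparisons within each surgery are therefore not shown to differ for these genes. The 4 were Kcna7, Kcna3 (3.44, SE 1.16, adjusted p 0.409), Kcnj9 (1.17, SE 0.46, adjusted p 0.525) and Kcnmb4 (-0.63, SE 0.25, adjusted p 0.544), given as the log2 fold change by AP20187 after DMM less that without surgery. The muscle and central neuron transcripts that set the naive AP20187 libraries apart enter this comparison too: 3 of 10 central neuron markers were called in it.

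The makeup of some subfamilies was measured as the share of a gene in the summed FPKM of its subfamily, given without a test. Kcnk6 made up 12.2% to 33.7% of the Kcnk sum under AP20187 after DMM, against 1.26% to 6.56% under vehicle. In naive mice it made up 4.27% to 17.8% against 0.737% to 2.91%. Kcnj2 made up 27.3% to 46.3% of the Kcnj sum in DMM with AP20187 and 7.83% to 32.8% with vehicle, and 14.7% to 44.5% against 6.90% to 19.7% in naive mice. Kcnk1, the leading leak channel at rest, went from 41.8% to 52.1% in DMM with vehicle down to 18.6% to 44.1% with AP20187. The Kcnj sums lay within 1 SD of each other, at 24.8 ± 3.00 FPKM in DMM with AP20187 and 24.9 ± 5.52 with vehicle, while the Kcnk sum was 26.4 ± 4.803 and 42.0 ± 6.65. Of the leading Kv1 and Kv4 pores, Kcna2 held 25.9% to 36.6% of the Kcna sum with AP20187 and 30.0% to 35.9% with vehicle, and Kcnd1 held 60.8% to 69.99% and 64.8% to 75.9% of the Kcnd sum.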

How the data were processed

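RNA was sequenced as stranded poly(A) libraries, per the labels' protocols. The authors deposited a table with raw read counts per gene and FPKM values for each of 19 libraries. Reads were handled with cutadapt, HISAT2 and StringTie on GRCm39, per the submitters' processing notes, which give no order. The program and annotation behind the deposited counts, and whether counting used strand, are not given in the sources used here. Counts were analysed in R 4.3.3 with edgeR 4.0.16: genes passing filterByExpr (minimum count 10) were scaled by TMM and fitted in 1 model of 4 groups (15 residual degrees of freedom) with the quasi-likelihood test. Benjamini-Hochberg adjustment ran over all 22778 genes tested, with a threshold of 0.05. The deposited FPKM values, normalized by the authors to length and depth, were used for levels between genes and for sums and shares over genes. Marker scores are means of log2 CPM with a prior count of 2. The procedure was tested on simulated data.

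The members, the gene lists and the tests were chosen with earlier results of these data known. Genes named in the text, 44 by rule, were up to 10 called members with the smallest p in each comparison and direction (at or above 1 CPM in a group), or the 3 with the smallest unadjusted p where none was called, the highest member of each subfamily and a list of channels linked to pain or ganglia; other names are said to have been chosen after their values were seen, or stand in a count or a level. Alternatives were library totals without TMM, no low-count filter, limma voom and limma on log2(FPKM + 1) (limma 3.58.1), DESeq2 1.42.0, a pan-neuronal covariate, leaving out each library, subsets of the vehicle libraries after DMM, and, added after seeing the data, scaling to pan-neuronal markers. Results of some members are not reported here.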

Additional observations from a re-analysis of the deposited data

Results flagged for a closer look

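Named genes were searched, group by group, for 1 library that lay far from the others on the log2 CPM scale. Of 167 combinations of a gene and a group, with 4 or 5 libraries each, 14 held such a library. The genes share the same libraries, so the combinations are not independent and no chance rate is given. DMM AP20187 58 was the low library for 4 genes: Kcnip1 at 5.86 CPM (others 16.5 to 22.8), Kcnq3 at 1.24 (9.49 to 16.2), Kcnt1 at 11.1 (56.2 to 92.8) and Kcnma1 at 4.61 (20.9 to 33.9). It also had the lowest pan-neuronal score of the 19 libraries, 6.45. DMM AP20187 62 was low for Kcnk2, at 2.12 CPM (others 8.83 to 11.2).

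DMM vehicle 64 was low for Kcnip2, at 50.2 CPM (others 108 to 135), and for Kcnn2, at 4.78 (8.95 to 9.18). Naive AP20187 3 was low for Kcnip1, at 4.09 CPM (20.5 to 23.4). Naive vehicle 4 was low for Kcnip1, at 13.9 CPM (32.2 to 43.5), for Kcnmb1, at 31.4 (50.5 to 57.5), and for Kcnv1, at 18.95 (37.8 to 49.2). Naive vehicle 3 was low for Kcnn1, at 31.0 CPM (39.5 to 43.5), and for Kcna4, at 23.4 (32.7 to 36.1), and high for Kcne4, at 3.73 (1.73 to 1.94). DMM vehicle 64, naive AP20187 3 and naive vehicle 4 had the lowest pan-neuronal scores of their groups. For naive vehicle 4 the margin was narrow, at 8.785 against 8.789 in naive vehicle 3.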

How the results depend on the processing

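For AP20187 against vehicle after DMM, where 33 genes were called, the count was 68 with limma voom (46.9% of all genes), 21 with no filter on low counts (11.3%), 3 with the pan-neuronal score as a covariate (4.46%), 9 with pan-neuronal scaling (41.5%), 59 with vehicle libraries 32 to 34 alone (36.3%) and 3 with 63 and 64 alone (4.73%), so the share of all genes called moved as well. Leaving out 1 library gave 13 to 52 (14.2% to 34.0%). For naive mice, where 5 were called, it was 16 with DESeq2 (19.1%), 25 with FPKM values (16.7%), 20 with limma voom (19.9%), 2 with the covariate (4.78%) and 2 with the scaling (9.58%), and 2 to 16 without 1 library (4.24% to 14.7%). Between DMM and naive mice under AP20187, where 0 were called, DESeq2 gave 4 (4.87%), FPKM values 1 (4.84%; Kcnk6, log2 fold change 0.87), limma voom 20 (10.8%), and fits without 1 library 0 to 1. DESeq2 gave 1 for the interaction (0.983%). Fits without 1 library gave 0 between the vehicle groups.

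Naive samples share the numbers 1, 3, 4 and 5 between treatments. With a replicate block over these libraries 16 genes were called (11.5% of all genes), against 1 without it (6.80%). Deviations of same-numbered samples correlated at 0.02, 0.30, -0.08 and 0.18, and 1 of 4 numbers correlated best with itself. With 4 numbers, these values cannot decide whether same-numbered samples are related, and the labels do not say.

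For AP20187 after DMM, 48 of the 84 log2 fold changes were above 0 with the covariate and 46 with the scaling, against 10. Among the named genes, 13 values changed sign where the gene was called in either fit: Kcne3 with limma voom (1.37, against -0.01), Kcnc4 (0.13), Kcns1 (0.048), Kcnd3 (0.14) and Kcnj12 (0.14) with the covariate, Kcnc4 (0.16) against vehicle 63 and 64, and, with the scaling, Kcnip4 (0.22), Kcnu1 (0.35), Kcnk1 (0.19), Kcnk9 (0.23), Kcnk2 (0.20), Kcnk13 (0.12) and Kcnmb4 (0.63), all as log2 fold changes. The scaling raised the median of all genes by 1.39, which carries its sign changes; the cause of the others was not tested. Genes under about 1 CPM, such as Kcna3 and Kcna7, rest on few reads, and 4 or 5 libraries in a group limit all comparisons.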
